A study of Mus musculus with 23 samples.

Results

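Hyou1, Hspa5, Hsp90b1, Dnajb9, Sdf2l1, Pdia4, Xbp1, Creld2, Manf and Herpud1 are 10 genes of the folding machinery and the stress response of the endoplasmic reticulum. They were taken by symbol from the 16259 genes measured in the proximal small intestine of the mouse, and all 10 had a mean above the minimum used for testing. In the untreated mice the average of the 10 stood highest after 2 h of refeeding. Hyou1, Hspa5, Pdia4, Creld2 and Manf were then 2.23 to 2.91 times their level in mice fed ad libitum. By 6 h of refeeding the same 5 genes and Hsp90b1 had fallen. In mice given doxorubicin at the start of refeeding, Hyou1 was lower at 2 h than in untreated refed mice. Each of these conditions held 1 wild-type and 1 Ddit4-/- library. Without the untreated knockout libraries that had few Y-linked reads, against their male label, these differences kept their direction but not their call. Herpud1, Dnajb9 and Xbp1 had their highest library in other conditions. Herpud1 rose 2.9-fold in ad libitum mice 12 h after doxorubicin, where 9.00% of all genes were called in either direction.

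The endoplasmic reticulum folds proteins that are secreted or placed in membranes. When unfolded protein builds up there, the sensors IRE1, PERK and ATF6 start the unfolded protein response: IRE1 splices the mRNA of Xbp1, ATF6 is cut to release a transcription factor, and PERK slows translation and raises ATF4. XBP1 and ATF6 drive chaperone and degradation genes, and in the intestine the pathway is best known in Paneth and goblet cells, which secrete large amounts of protein.

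Whole tissue from mice labelled male was sequenced as poly-A RNA. Of the 23 libraries 12 were wild type and 11 came from Ddit4-/- mice, which lack an inhibitor of mTORC1. The untreated groups were fed ad libitum, fasted for 24 h, or fasted for 24 h and refed for 2 or 6 h. Doxorubicin, a chemotherapy drug that damages DNA, was injected into the abdomen at 20 mg/kg. Tissue was taken 2, 6, 12 or 24 h later from mice fed ad libitum, or from mice that had fasted for 24 h and were refed for those same hours, called prefasted here. There was 1 library for each condition and genotype, 12 conditions in all, 11 of them with both genotypes. At 2 h after doxorubicin the ad libitum condition had the wild-type library only. Ages and the number of mice behind a library are not given in the sources used here, so p-values measure the spread between these libraries only.

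The libraries held 11.42 to 23.43 reads in units of 1e+06. Ddit4 had at least 48 reads in every wild-type library and at most 16 in every knockout library. Enterocyte markers summed to between 772005 and 1567749 normalized reads, with none of them at 0 in any library. Of all libraries, 3 knockout untreated ones (ad libitum, fasted and refed 2 h) had fewer than 20 reads of Y-linked genes, against their label, and are called Y-negative here. The fasted knockout and the wild-type refed 6 h library held 87455 and 231426 normalized reads of 15 pancreatic acinar markers, against at most 4615 elsewhere. The wild-type prefasted doxorubicin libraries, 4 in number, have titles that say untreated, and their drug label was used. Values without these libraries are given beside some of the member results they change, and for none of the other pathway genes.

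Upstream sequences are shown for the members that hold a known control element of this response. RefSeq (GRCm38.p6) gave the 300 bases from 250 before to 50 after the start site for 8 of the 10 members, all but Hyou1 and Manf. The searched elements were the endoplasmic reticulum stress element ERSE (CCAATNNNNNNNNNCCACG), ERSE-II (ATTGGNCCACG), the XBP1 element UPRE (TGACGTGG) and the ATF4 element CARE (TGATGCAA), each on both strands. In the lines that follow, capitals mark the elements and each line runs 5′ to 3′ on the gene's strand.
Hspa5: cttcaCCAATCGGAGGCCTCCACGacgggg
Hsp90b1: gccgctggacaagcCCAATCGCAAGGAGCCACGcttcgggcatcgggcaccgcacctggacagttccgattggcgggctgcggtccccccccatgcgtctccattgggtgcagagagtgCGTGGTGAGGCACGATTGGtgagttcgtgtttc
Creld2: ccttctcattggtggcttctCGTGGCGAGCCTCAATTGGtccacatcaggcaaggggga
Herpud1: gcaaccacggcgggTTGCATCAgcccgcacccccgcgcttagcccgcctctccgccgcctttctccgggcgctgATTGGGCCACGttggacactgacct

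The Hspa5 stretch lies at chr2:34772020-34772049 on the plus strand and holds 1 ERSE, at positions -65 to -47 from the RefSeq start. The GENCODE gene model used for levels below starts earlier, at 34771970, so by that model the stretch lies inside the gene. Hsp90b1 (chr10:86705519-86705670, minus strand) holds an ERSE on the gene's strand at -212 to -194 and another on the opposite strand at -107 to -89. Creld2 (chr15:88819500-88819558, plus strand) holds 1 on the opposite strand at -126 to -108. ERSE was present in 39 of 32851 promoters (0.119%), 3 of the 8 members and 7 of 90 other genes of the pathway (Calr, Canx, Derl3, Dnajc3, Ero1b, Pdia6 and Syvn1). Herpud1 (chr8:94386303-94386401, plus strand) holds an ERSE-II at -52 to -42, an element found in 12 promoters (0.0365%) that included Dnajb11. It also holds a CARE on the opposite strand at -112 to -105, found in 294 promoters (0.895%). No 2 of these matches overlap, and the UPRE, in 222 promoters (0.676%), matched no member in these windows. A match is a description of the letters and not evidence of binding.

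The chaperones are Hspa5 (BiP, the Hsp70 of the endoplasmic reticulum), Hsp90b1 (GRP94, its Hsp90) and Hyou1 (GRP170, which exchanges nucleotide on BiP). Dnajb9 (ERdj4) is a J-domain cochaperone of BiP, Sdf2l1 works with another J-domain protein, and Pdia4 (ERp72) forms disulfide bonds. Creld2 and Manf are induced proteins of the endoplasmic reticulum that can also be secreted. Xbp1 encodes the transcription factor spliced by IRE1, and these gene-level values do not separate its spliced from its unspliced form. Herpud1 is a membrane protein of the machinery that sends misfolded proteins to degradation.

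Levels were scaled to all bases in any annotated exon of a gene (GENCODE, mm10). That length can exceed that of a single mRNA, so the order of the genes is approximate. The median level over libraries was highest for Hspa5, at 1627 normalized reads per kb. Herpud1 (1315), Xbp1 (1245) and Hsp90b1 (1061) came next, then Dnajb9 (733), Manf (410.0), Creld2 (322), Pdia4 (248), Sdf2l1 (219.9) and Hyou1 (182), all in normalized reads per kb. Library preparation kept no strand, and Hsp90b1, Dnajb9, Pdia4, Manf and Herpud1 overlap other annotated genes. The Manf gene model (chromosome 9, 106838312 to 106891979) spans part of Dcaf1 and Rbm15b, and Herpud1 (chromosome 8, 94386438 to 94395377, 8 exons) has the antisense gene Gm15890, so reads shared with these cannot be told apart. Hyou1 (chromosome 9, 44379490 to 44392369, 17 exons) and Hspa5 (chromosome 2, 34771970 to 34777547, 9 exons) overlap no other gene. Exon counts are those of the annotated transcript with the most exon bases.

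**Figure D1:**
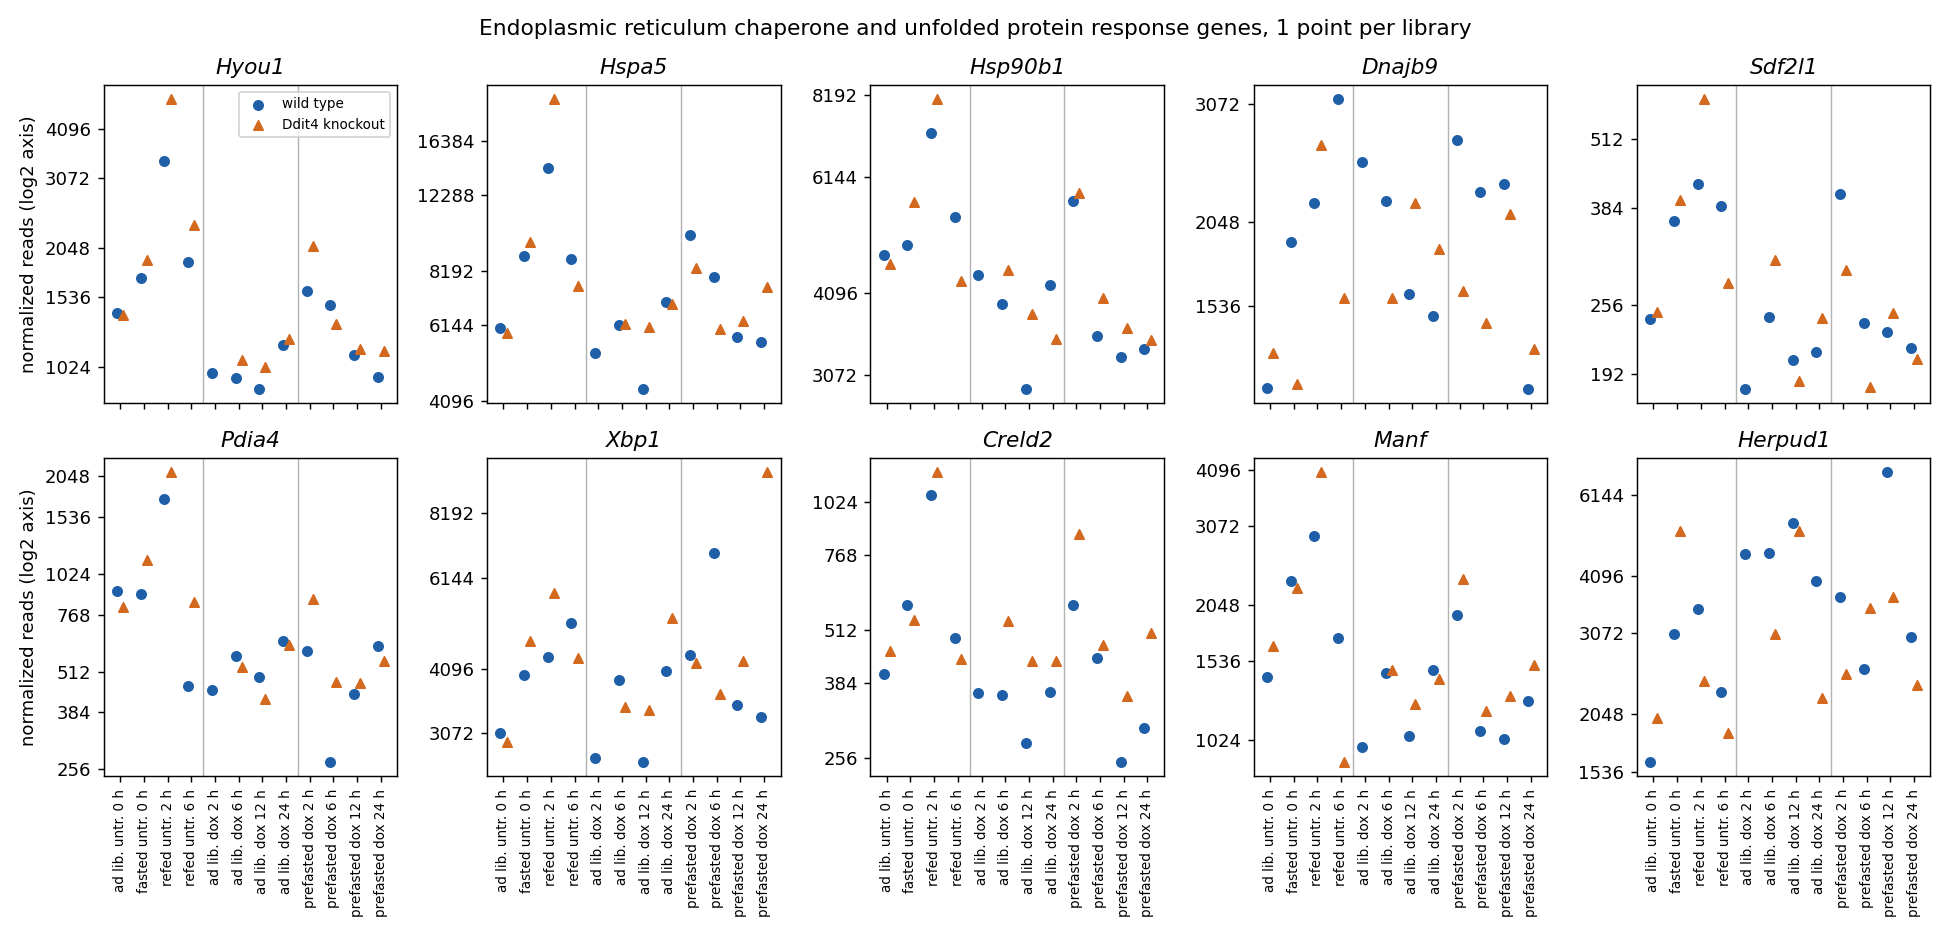
Normalized reads (log2 axis) of each of the 10 genes in every library, with the 12 conditions on the horizontal axis; circles are wild-type and triangles Ddit4 knockout libraries, and vertical lines separate untreated, ad libitum doxorubicin and prefasted doxorubicin mice. The refed 2 h pair is highest in 7 panels, and Dnajb9, Xbp1 and Herpud1 peak elsewhere.

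Over all 23 libraries, the wild-type and knockout libraries refed for 2 h without drug ranked among the top 2 for 7 of the 10 members: Hyou1, Hspa5, Hsp90b1, Sdf2l1, Pdia4, Creld2 and Manf. Averaged over the 10 members as log2(value + 1) after centring each gene on its mean, the pair stood at 0.75 (wild type) and 1.03 (knockout). The fasted pair followed at 0.24 and 0.35 and the prefasted pair 2 h after doxorubicin at 0.29 and 0.26, and these 2 conditions did not differ beyond their spread. The refed 6 h pair stood at 0.17 and -0.07. All other libraries lay between -0.42 and -0.09, where some conditions overlapped and others did not, and their order was not tested. The lowest was the wild-type ad libitum library 12 h after doxorubicin.

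The widest range was that of Pdia4, whose highest library was 7.79 times its lowest, followed by Hyou1 at 5.39 times. Dnajb9 (2.7 times) and Hsp90b1 (2.75 times) had the narrowest ranges. Dnajb9 was highest in the wild-type refed 6 h library (3121 normalized reads), Xbp1 in the knockout prefasted library 24 h after doxorubicin (9828) and Herpud1 in the wild-type prefasted library 12 h after doxorubicin (6883). Each of these 3 peaks came from 1 library whose partner of the other genotype was lower. The partners stood at 1576 for Dnajb9, 3299 for Xbp1 and 3682 for Herpud1. The library of the Dnajb9 peak held pancreatic transcripts (231426 normalized reads of acinar markers).

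Fasting was compared with ad libitum feeding first. Hspa5 had 6042 (wild type) and 5896 (knockout) normalized reads in ad libitum mice, and 8865 and 9579 in fasted mice. Herpud1 had 1615 and 2007 against 3068 and 5132 after fasting. The pairs did not overlap for either gene, and those of Dnajb9 and Pdia4 did. With 2 libraries a side pairs can separate without a difference. The share of all genes that did so was not computed, here or in any comparison below. In limma's fit, however, 0 of 10 members passed the threshold (adjusted p below 0.05), against 0.343% of the 11939 genes tested. The log2 differences were positive for all 10, from 0.18 to 1.14, with a median of 0.45 where that of all genes was -0.00. At an unadjusted p below 0.05 there were 843 genes, 5 of them members. Herpud1 had the largest difference, 1.14 ± 0.32 (log2, SE; adjusted p = 0.22), but without the 2 libraries with pancreatic transcripts it stood at 0.60, below Manf at 0.70, Creld2 at 0.66 and Hspa5 at 0.62. edgeR called 0 members and DESeq2 1, Herpud1. Without the 3 Y-negative libraries, Pdia4 turned negative and the other 9 stayed positive (median 0.55). All 10 were positive without the 2 libraries with pancreatic transcripts (median 0.59).

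Refeeding for 2 h was then set against the ad libitum state. Hyou1 had 1406 (wild type) and 1385 (knockout) normalized reads in ad libitum mice and 3396 and 4870.2 after 2 h of refeeding. Hspa5 went from 6042 and 5896 to 14203 and 20497, and Creld2 from 404 and 456 to 1063 and 1202. In each of these genes both refed libraries lay far above both ad libitum libraries. Manf had 1411 and 1657 normalized reads against 2921 and 4043 after refeeding, and Pdia4 910.1 and 808 against 1747 and 2106. These are 5 members of 10 that rose in limma's fit, where 0.477% of all genes tested were called higher. Hyou1 rose by 1.54 ± 0.16 on the log2 scale (SE, adjusted p = 0.00064), Hspa5 by 1.52 ± 0.21 (adjusted p = 0.0031) and Creld2 by 1.39 ± 0.23 (adjusted p = 0.0099). The values were 1.17 ± 0.24 for Manf (adjusted p = 0.031) and 1.16 ± 0.26 for Pdia4 (adjusted p = 0.049).

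The other 5 were all positive. Sdf2l1 had 242 (wild type) and 249 (knockout) normalized reads in ad libitum and 425 and 604 in refed mice (log2 1.04 ± 0.25, adjusted p = 0.066). Hsp90b1 had 4679 and 4528 against 7171 and 8069 (log2 0.72 ± 0.17, adjusted p = 0.059). Dnajb9, Xbp1 and Herpud1 differed by 0.97, 0.72 and 0.69, with adjusted p-values of 0.19, 0.43 and 0.4. The median over the 10 members was 1.10, against 0.03 over all genes.

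How far these calls rest on single libraries is as follows. The knockout libraries of both conditions are among the 3 Y-negative ones. Without those 3, no member was called, while all 10 stayed positive with a median of 0.99 and Hyou1 stood at 1.27 (adjusted p = 0.23). Leaving out 1 library at a time gave between 1 and 7 called members: 3 without the wild-type and 1 without the knockout ad libitum library, and 2 without the wild-type and 1 without the knockout refed library. Hyou1 kept its call in each of the 23 cases, with log2 differences from 1.35 to 1.74. edgeR called 4 of the members and DESeq2 7.

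**Figure D2:**
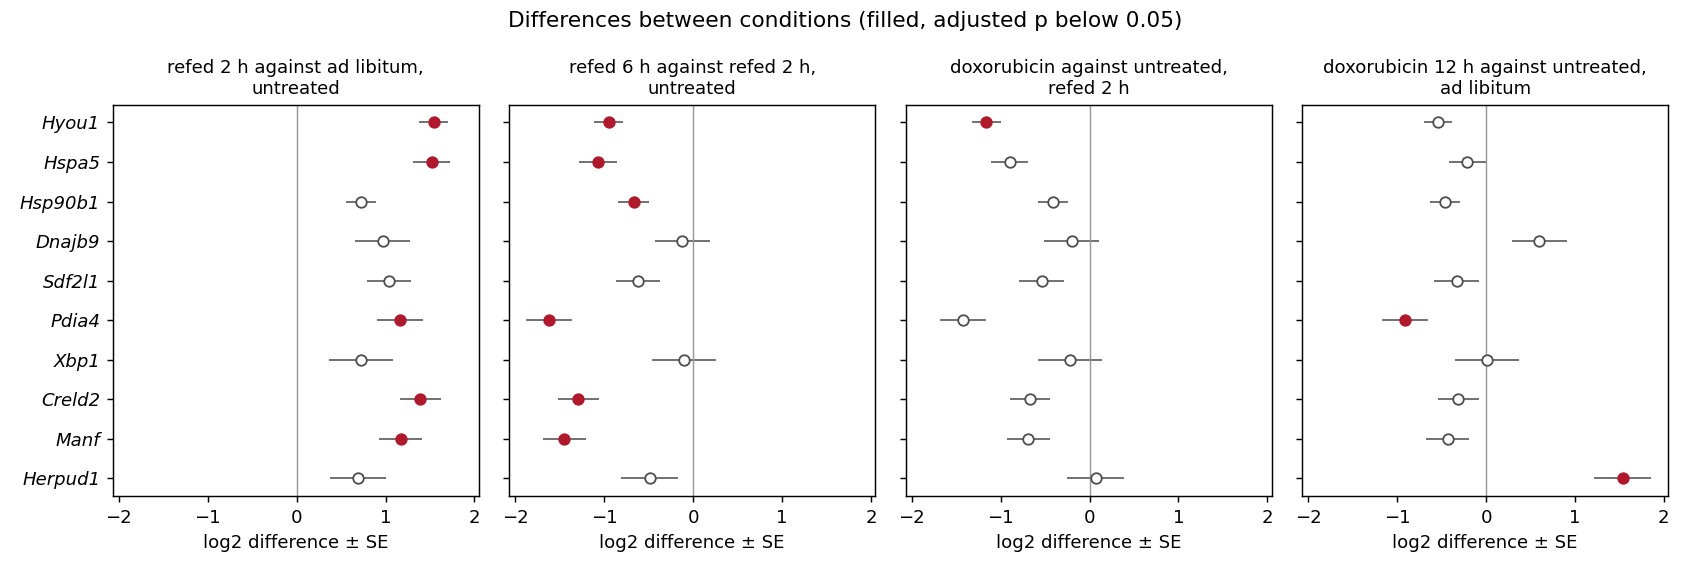
Log2 difference (horizontal axis, with standard error) of each of the 10 genes in 4 comparisons; filled points have an adjusted p below 0.05 in limma's fit. Hyou1 is called in the first 3 panels, and Herpud1 and Pdia4 are called in opposite directions in the last.

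Refed mice can also be read against fasted mice, the state they came from; this comparison and the others with refed 2 h mice share those libraries. Hyou1 stood at 1717 (wild type) and 1910.5 (knockout) normalized reads in fasted mice and at 3396 and 4870.2 after refeeding. It was the single member that rose, by 1.17 ± 0.16 on the log2 scale (SE, adjusted p = 0.0065), beside 0.142% of all genes called higher. Creld2 (log2 1.0 ± 0.23, adjusted p = 0.094), Pdia4 (0.93 ± 0.26, adjusted p = 0.2) and Hspa5 (0.89 ± 0.21, adjusted p = 0.11) did not pass, and DESeq2 called them with Hyou1, 4 members in all. The pairs overlapped for Xbp1 and Herpud1, and Herpud1 was the one negative value, -0.45. It turned positive, at 0.09, without the 2 libraries with pancreatic transcripts and at 0.18 without the 3 Y-negative ones. The call of Hyou1 was lost without either fasted library, without the knockout refed library, without the 2 libraries with pancreatic transcripts (log2 1.17, adjusted p = 0.09) and without the 3 Y-negative ones (0.98, adjusted p = 0.51).

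Between 2 and 6 h of refeeding, 6 of the 10 members fell, against 5.40% of all genes called lower. Pdia4 had 1747 (wild type) and 2106 (knockout) normalized reads at 2 h and 461 and 837 at 6 h, and fell by 1.62 ± 0.26 on the log2 scale (SE, adjusted p = 0.0043). Manf had 2921 and 4043 at 2 h and 1730.2 and 914 at 6 h, and fell by 1.45 ± 0.24 (adjusted p = 0.0048). The 6 h libraries of both genes lay below both 2 h libraries, and the knockout was the lower of the 6 h pair for Manf and the higher for Pdia4. Creld2 fell by 1.29 ± 0.23 (adjusted p = 0.0057), to 489.8 and 438 normalized reads. Of the 3 chaperones, Hspa5 fell by 1.07 ± 0.21 (adjusted p = 0.0096), Hyou1 fell by 0.95 ± 0.16 (adjusted p = 0.005) and Hsp90b1 fell by 0.67 ± 0.17 (adjusted p = 0.025). Sdf2l1 differed by -0.62 (adjusted p = 0.13). Dnajb9 (-0.12) and Xbp1 (-0.10) had overlapping pairs, and Herpud1 stood at -0.49 (adjusted p = 0.35). All 10 values were negative, with a median of -0.81 against -0.05 over all genes.

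edgeR and DESeq2 each called 6 members. Without the 2 libraries with pancreatic transcripts all 10 stayed negative (median -0.88), with Manf at -2.01, Creld2 at -1.57 and Pdia4 at -1.25. Without the 3 Y-negative libraries, which include the knockout refed 2 h library, none was called, 8 of 10 stayed negative, and Creld2 stood at -1.40 (adjusted p = 0.051) and Pdia4 at -1.60 (adjusted p = 0.058). Removing the 2 h wild-type library left 3 calls, removing the 2 h knockout library left 2, and removing the libraries with pancreatic transcripts as well as the Y-negative ones left 2.

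Compared with fasted mice, refed 6 h mice had a lower level of Manf (2309 and 2238 normalized reads fasted, 1730.2 and 914 refed, wild type then knockout). This fall of 0.85 ± 0.24 (log2, SE, adjusted p = 0.044) was the only call among the members, where 3.46% of all genes were called lower. It was lost in 13 of the 23 fits that left out a library and ranged there from -1.41 to -0.30. edgeR gave 0 calls and DESeq2 2. Both conditions hold a library with pancreatic transcripts, and without these Manf stood at -1.54. That value sets 1 wild-type fasted library against 1 knockout refed library, the lowest of the series for Manf (914). Its correction for genotype rests on the other conditions. Without the 3 Y-negative libraries it stood at -0.89 (adjusted p = 0.33), and without the 4 libraries with conflicting titles at -0.85 (adjusted p = 0.052). In the refed pair the knockout minus wild-type difference of Manf was itself -0.92.

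Markers of other cells also differed between these feeding conditions, in part against the direction of the members. The 8 Paneth cell markers summed to 55399.9 (wild type) and 23616 (knockout) normalized reads in the untreated refed 2 h libraries, where the members stood highest. They summed to 21966 to 27808 in ad libitum, 9805 to 17151 in fasted and 3190.3 to 6585 in refed 6 h libraries. The knockout refed 2 h sum thus lay within the ad libitum range. Fasted libraries had lower Paneth sums than ad libitum ones, while the mean of the members was higher in them. None of the 8 was at 0 in any library. Over the 23 libraries, the mean of the members and the log2 sum of the Paneth markers had a Pearson r of 0.57. Fat tissue markers summed to 5139 to 6914 at refed 2 h, with none of 7 at 0, and to 2481 to 2899 in ad libitum, where 2 or 3 were at 0. The 8 goblet cell markers, none at 0 in any library, summed to 173669 to 207293 at refed 2 h, above the 134503 to 139615 of ad libitum. They summed to 97852 to 172758 in fasted and 128233 to 180092 in refed 6 h libraries, and their r with the members was -0.17. B and plasma cell markers summed to 313 to 516 at refed 2 h, with 2 or 3 of 8 at 0, below the 846 to 1519 of ad libitum, with at most 1 at 0; their r was -0.39. The part of these cells in the result was not tested, and in whole tissue fewer cells of a type and less RNA per cell cannot be told apart. Acinar markers summed to 1023 to 1385 in the refed 2 h libraries, and their r with the members was 0.14. The r of enterocyte markers was -0.45.

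**Figure D3:**
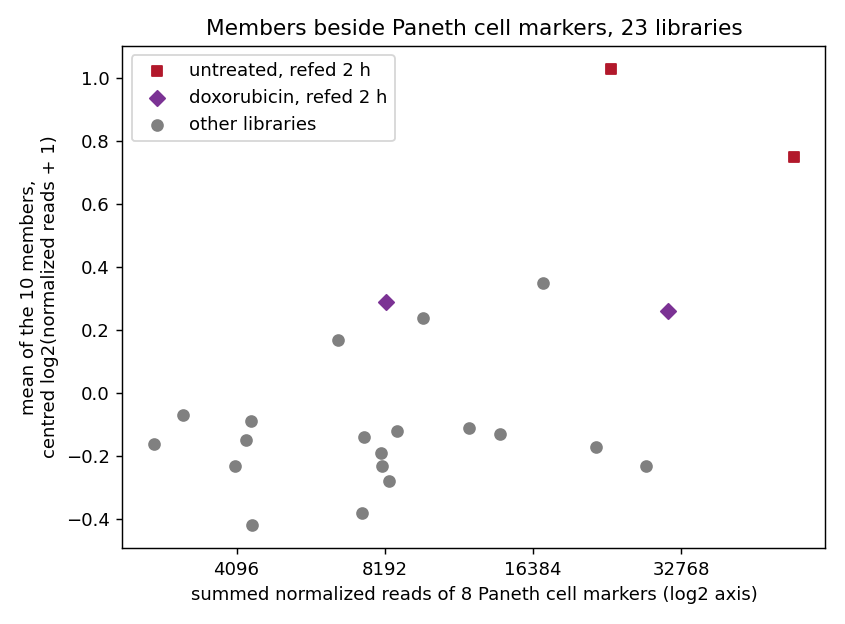
Mean of the 10 members (vertical axis, centred log2) against the summed normalized reads of 8 Paneth cell markers (horizontal log2 axis), 1 point per library. The untreated refed 2 h libraries, at 0.75 and 1.03, lie above all others. Pearson r over the libraries was 0.57, and the part of Paneth cells was not tested.

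Doxorubicin in mice fed ad libitum was tested at 6, 12 and 24 h against the same untreated pair, which the 3 comparisons share. Herpud1 stood at 1615 (wild type) and 2007 (knockout) normalized reads without drug, 4589 and 3069 at 6 h, 5334 and 5129.6 at 12 h and 4003 and 2217 at 24 h. Every treated library was above both untreated ones, but the share of all genes that separated in this way was not computed. At 12 h Herpud1 rose by 1.54 ± 0.32 on the log2 scale (SE, adjusted p = 0.0091), and at 6 and 24 h it differed by 1.06 ± 0.32 and 0.73 ± 0.32 (adjusted p = 0.12 and 0.23). Without the Y-negative libraries the 12 h value was 1.89 (adjusted p = 0.025), and edgeR and DESeq2 also called it (adjusted p = 0.012 and 0.0002). It was not called without the wild-type untreated library or without the knockout 12 h library, at values no lower than 1.24.

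Pdia4 went the other way. It had 910.1 and 808 normalized reads in untreated and 492 and 423 in 12 h libraries, and fell by 0.91 ± 0.26 on the log2 scale (SE, adjusted p = 0.039). Its adjusted p was 0.16 without the Y-negative libraries (log2 -1.11), and 6 of the 23 fits that left out 1 library did not call it, those without an untreated ad libitum, a 12 h or an untreated refed 2 h library. Hyou1, at 903 and 1025 against 1406 and 1385, missed the threshold (log2 -0.54 ± 0.16, adjusted p = 0.051). The count at 12 h was thus 2 of 10 members, where 9.00% of all genes were called, and leaving out 1 library gave 0 to 3. Paneth cell markers were lower in all treated libraries of these comparisons than in the untreated pair: they summed to 21966 to 27808 untreated, 8662 to 12119 at 6 h, 4412 to 8047 at 12 h and 7425 to 14040.4 at 24 h. Enterocyte markers summed to 772005 to 930254 untreated and to 1288618 to 1567749 at 12 h. The part of these cells in the differences of Herpud1 and Pdia4 was not tested.

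At 6 h, 0 of 10 members passed, against 1.34% of all genes. At an unadjusted p below 0.05 there were 1763 genes, 3 of them members. edgeR called 0 members and DESeq2 1, again Herpud1. At 24 h the count was 0 of 10 against 3.11%, with 2266 genes and 1 member under the unadjusted level. edgeR and DESeq2 called 0 members there. Hspa5 had log2 differences of 0.05, -0.21 and 0.21 at the 3 times. Its libraries had 6135 and 6193 normalized reads at 6 h, 4379 and 6089 at 12 h and 6946 and 6879.7 at 24 h.

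Doxorubicin in refed mice was set against untreated mice refed for the same time. At 2 h, Hyou1 had 1594 (wild type) and 2073 (knockout) normalized reads with the drug and 3396 and 4870.2 without it. It fell by 1.16 ± 0.16 on the log2 scale (SE, adjusted p = 0.024), the only call among the members, and 0.0251% of all genes, or 3 of 11939, were called lower. Pdia4 had 595 and 857 against 1747 and 2106 (log2 -1.42 ± 0.26, adjusted p = 0.057), and Hspa5 9966 and 8353 against 14203 and 20497 (-0.90 ± 0.21, adjusted p = 0.11). No drug library of these 3 genes, or of Hsp90b1, Sdf2l1, Creld2 and Manf, reached an untreated one. The share of all genes whose pairs separated here was not computed. Hsp90b1, Sdf2l1, Creld2 and Manf had values of -0.41, -0.54, -0.67 and -0.69. Herpud1 was alone in a positive value (0.07), and the median of the 10 was -0.60.

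In each genotype on its own, from 1 library against 1, Hyou1 differed by -1.09 (wild type) and -1.23 (knockout) and Pdia4 by -1.55 and -1.30. Hspa5 differed by -0.51 and -1.29, and Sdf2l1 by -0.06 and -1.02, so for these the knockout pair held most of the difference. The wild-type drug library here has a title that says untreated, and without it and the 3 others of that kind no member was called. The same held without the Y-negative libraries (Hyou1 -0.98, adjusted p = 0.37), and without either untreated library at refed 2 h. edgeR called 1 member and DESeq2 3. Paneth cell markers summed to 8226 (wild type) and 30785 (knockout) in the drug pair. Their part in the difference was not tested.

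At 6 h of refeeding, 0 of the 10 members passed, and 0.00% of all genes did; edgeR called no gene and DESeq2 127, none of them a member. At an unadjusted p below 0.05 there were 1439 genes, 3 of them members. Hyou1 had 1467 and 1318 normalized reads with the drug and 1886 and 2339 without (log2 -0.59 ± 0.16, adjusted p = 0.17). The median of the members was -0.26, and 0.05 without the 2 libraries with pancreatic transcripts. It was -0.43 without the 4 libraries with conflicting titles.

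Feeding before doxorubicin was tested in 7 pairs of libraries matched on genotype and time. Of the 10 members 0 passed, as 0.00% of all genes did, and the median was 0.03. At an unadjusted p below 0.05 there were 766 genes and 1 member, Xbp1; edgeR called no gene, and DESeq2 21, none a member. Xbp1 was higher in the prefasted library of 6 of 7 pairs, by 0.41 ± 0.14 on average (log2, SE, adjusted p = 0.75). Its differences ran from -0.29 in the wild type at 24 h to 0.94 in the knockout at 24 h, where the prefasted library had 9828 and the ad libitum library 5127 normalized reads. Hyou1 was higher in all 5 pairs at 2, 6 and 12 h (0.69 in the wild type at 2 h, the largest) and lower in both at 24 h. The change of the feeding difference from 2 and 6 h to 12 and 24 h was -0.52 ± 0.20 for Hyou1 (adjusted p = 0.84). In that test too 0 members and 0.00% of all genes passed, with 671 genes and 1 member at an unadjusted p below 0.05 and 0 members called by edgeR or DESeq2. All 4 wild-type prefasted libraries have titles that say untreated. Leaving them out keeps the knockout pairs alone, at 6, 12 and 24 h, so titles, genotype and times change together. The median feeding difference was then -0.06, with 3 members positive and 7 negative. Over all pairs it was 0.03, with 6 positive and 4 negative. The change with time then had a median of 0.14, with 7 positive and 3 negative, against -0.10, with 2 positive and 8 negative, over all pairs.

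Loss of Ddit4 was compared over 11 conditions with both genotypes. Of the members 0 passed in limma's fit, against 0.578% of all genes. At an unadjusted p below 0.05 there were 1430 genes, 2 of them members, and edgeR and DESeq2 called no member. Creld2 was higher in the knockout in 9 of 11 conditions, by 0.31 ± 0.10 on average (log2, SE, adjusted p = 0.18), with values from -0.16 to 0.74. Hyou1 was also higher in 9 of 11 (0.17 ± 0.07, adjusted p = 0.33). Herpud1 was lower in the knockout in 8 of 11, and its values ran from -0.90 to 0.74 (average -0.24 ± 0.14, adjusted p = 0.53). The median over the members was 0.08, with 7 positive and 3 negative. It was 0.04, with the same numbers, without the 3 Y-negative libraries, all of them knockouts, and 0.11, with 8 positive and 2 negative, without the 2 libraries with pancreatic transcripts. In the refed 2 h pair, 9 of the 10 members were higher in the knockout, by 0.17 to 0.53, and Herpud1 was lower by 0.52. The knockout library of this pair is Y-negative and the wild-type library is not, so genotype and that mismatch cannot be told apart in it.

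The members were compared with each other over the 23 libraries. Among the 7 whose top libraries were the refed 2 h pair, the 21 Pearson r of log2 values ran from 0.70 to 0.91 (median 0.84), with Hyou1 and Hspa5 the most alike. Herpud1 had r of -0.38 to -0.19 with those 7. Dnajb9 and Xbp1 stood between, with medians of 0.23 and 0.29 over the other members. These values share the refed 2 h libraries, which pull the 7 together, and are a description only.

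**Figure D4:**
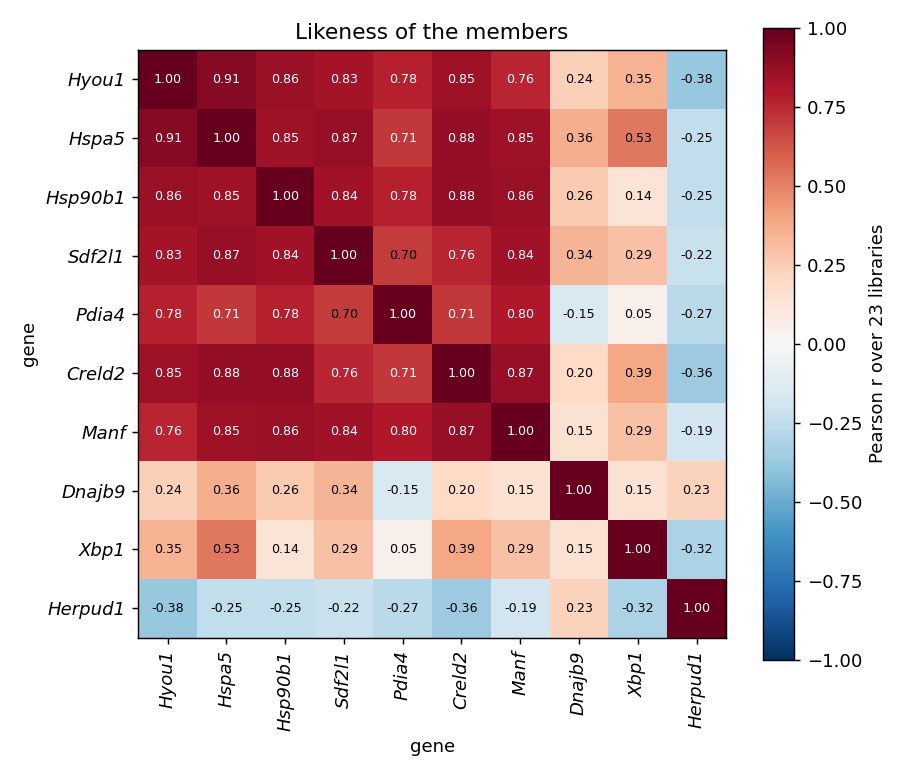
Pearson r of log2(normalized reads + 1) over 23 libraries for each pair of the 10 genes, with genes on both axes. The 7 genes at the upper left have r of at least 0.70 with each other, and the Herpud1 row is negative except with Dnajb9.

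Among 9544 other genes with a mean of at least 50, those most like the mean of the members over the 23 libraries were Pdia3, a disulfide isomerase that works with calnexin and calreticulin (r = 0.89), and Nup62, a protein of the nuclear pore (0.87). Trabd and Hspa8, the constitutive cytosolic Hsp70, followed at 0.85 each. Srprb, a subunit of the signal recognition particle receptor, Hsph1, a cytosolic Hsp110, and Dnajb11, a BiP cochaperone, stood at 0.84. Tm9sf3 and Serbp1 had 0.83 and Ech1 0.82, and the median r of all genes was -0.02.

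A further 106 genes of the pathway were read beside the members: sensors and their targets, other chaperones, disulfide enzymes, degradation, translocation, glycosylation and export. After 2 h of refeeding against ad libitum, 2 of 106 (1.89%) rose and none fell, beside 0.477% and 0.302% of all genes. They were the oligosaccharyltransferase subunit Stt3a (log2 0.75 ± 0.16, adjusted p = 0.044) and the disulfide isomerase Txndc5 (1.14 ± 0.25, adjusted p = 0.046). From 2 to 6 h of refeeding 7 fell and 2 rose, or 8.49% of the list, near the 9.00% of all genes that were called. Pdia6, a disulfide isomerase, fell by 1.29, the peroxiredoxin Prdx4 by 1.47, the glucosidase Mogs by 1.12, Srprb by 0.64, the signal peptidase subunit Spcs2 by 0.61 and Dnajb11 by 0.56. The export coat gene Sec24d (0.98) and the transcription factor Creb3 (0.87) rose, and the median of the list was 0.03.

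Refed 6 h mice differed from fasted mice in 7 of the 106, or 6.60%, near the 7.02% of all genes called. Ero1l, the oxidase that recharges disulfide isomerases, rose by 1.61 ± 0.27 (log2, SE, adjusted p = 0.0063), Sec24d by 1.12, Sec24a by 0.91, the cargo receptor Surf4 and the disulfide isomerase P4hb by 0.82 each, and Sel1l, a partner of the ubiquitin ligase for misfolded proteins, by 0.56. Sec11a, of the signal peptidase, fell by 0.58. Neither fasting against ad libitum nor refed 2 h against fasted gave a call among them.

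In ad libitum mice 12 h after doxorubicin, 8 of the 106 rose and 8 fell (7.55% each), where 4.78% of all genes rose and 4.21% fell. The membrane-bound transcription factors Creb3l3 (1.09 ± 0.18, adjusted p = 0.0023) and Creb3l2 (1.08 ± 0.21, adjusted p = 0.0064), Sel1l (0.83) and the lectin Os9 (0.71), which serve degradation with Herpud1, rose. Prdx4 fell by 1.70, Pdia6 by 1.24, Spcs2 by 0.97 and Sec11a by 0.74. At 6 h 4 of the 106 (3.77%) were called, against 1.34% of all genes: the PERK arm gene Trib3 (1.90 ± 0.33, adjusted p = 0.011), Creb3l3 (1.06) and Creb3l2 (1.04) rose and Spcs2 fell by 0.91. At 24 h 5 (4.72%) were called, against 3.11% of all genes: Creb3l3 (1.12) and Creb3l2 (1.05) rose, and Prdx4, Pdia6 and Spcs2 fell by 1.64, 1.01 and 0.84. None of the 106 passed for doxorubicin at either refeeding time or for feeding before the drug, and in the knockout 1 rose, the glucosidase subunit Prkcsh (0.27 ± 0.06, adjusted p = 0.048), or 0.943% beside 0.578% of all genes.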

How the data were processed

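Poly-A RNA of whole proximal small intestine was sequenced in 23 libraries without strand information, per the labels. Trim Galore, STAR, DESeq2 and the build mm10 stand in the submitters' processing notes, with no versions. The deposited values are a signal, read counts divided by 1 factor per library by the authors, for 16259 genes; how reads were assigned to genes is not given in the sources used here. Dividing each library by its smallest step gave whole reads for 100% of values (tolerance 0.01 read), and 1 read stood for 0.705 to 1.67 normalized reads.

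The scale used was log2(value + 1), for 11939 genes whose mean over all libraries was 10 or more, and log2 differences are on that scale, which understates the change of low genes. limma 3.58.1 (R 4.3.3, eBayes with trend) was fitted to 12 conditions plus genotype over all libraries (10 residual degrees of freedom). The 2 genotypes of a condition stand in for replicates, so genotype effects that differ between conditions enter the spread. Feeding before doxorubicin was fitted over 7 matched pairs (6 residual degrees of freedom; 5 for the change with time). Tests were two-sided, with Benjamini-Hochberg adjustment over all genes and a threshold of 0.05. The matching of pairs on genotype and time comes from the labels.

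Alternatives were pseudocounts of 0.5 and 5, no filter, quantile normalization, edgeR 4.0.16 and DESeq2 1.42.0 with reads recovered as above, the full fit for the pairs, and fits without named libraries or without 1 library at a time. When 1 library of a condition is left out, the other is assumed to vary like the rest. Leaving out the libraries with pancreatic transcripts and those lacking Y-linked reads together was chosen after seeing the data. Scripts were tested on simulated data. Members and lists were chosen with earlier results of these data known. The rule for names was all 10 members, at most 8 pathway genes per comparison by smallest p among those passing, and the 10 genes most like the members.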

Additional observations from a re-analysis of the deposited data

Results flagged for a closer look

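The wild-type ad libitum library taken 2 h after doxorubicin has no knockout partner and entered no comparison of its own. Of the 10 members, Dnajb9 and Herpud1 were more than 1.5 times the higher untreated ad libitum library there. Dnajb9 had 2518 normalized reads, 1.93 times the 1306 of the knockout untreated library. Herpud1 had 4566, 2.28 times the 2007 of that library. The ratios compare single libraries and were not tested.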

How the results depend on the processing

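Over the 33 alternatives of each, the 16 called member results kept direction and call in 432 of 528 cases and direction alone in 96, and none reversed. Results not called gained a call in 34 of 3782 cases. Numbers of called members that moved by over 1.5 times were as follows. DESeq2 gave 1 for fasting (against 0), 4 for refed 2 h against fasted (against 1), 2 for refed 6 h against fasted (against 1), 1 for doxorubicin at 6 h (against 0) and 3 for doxorubicin at refed 2 h (against 1). Quantile normalization gave 3 for refed 2 h against fasted, 4 for doxorubicin at 12 h (against 2) and 3 for doxorubicin at refed 2 h. Without a filter, refed 6 h against fasted gave 0 and doxorubicin at 12 h 1, and edgeR gave 0 for the former. Without the Y-negative libraries, 0 members were called in the 4 refeeding comparisons and for doxorubicin at refed 2 h, and 1 for doxorubicin at 12 h. Leaving out the pancreatic libraries too gave the same numbers except 2 for refed 6 h against 2 h. Leaving out the pancreatic libraries alone gave 0 for refed 2 h against fasted and 2 for doxorubicin at refed 2 h, and leaving out conflicting titles gave 0 for the latter and for refed 6 h against fasted. Leaving out 1 library gave 0 to 1 for refed 2 h and for refed 6 h against fasted, 2 to 6 for refed 6 h against 2 h, 1 to 7 for refed 2 h against ad libitum, 0 to 3 for doxorubicin at 12 h and 0 to 2 for doxorubicin at refed 2 h. The cause was not tested. No paired analysis beyond genotype and the matched pairs was possible because each condition and genotype has 1 library.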
